A study of Homo sapiens with 6 samples.

Results

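The genes described are 8 that make or remove PIP3, the membrane lipid produced by class I phosphoinositide 3-kinases (PI3Ks), or act on its product: the catalytic subunits PIK3CA and PIK3CB, the regulatory subunits PIK3R1 and PIK3R2, and the inositol lipid phosphatases INPP5D, INPPL1, INPP4A and INPP4B. The set was chosen because one of them, INPP5D, was over 2-fold higher than control with both guides against TREX1. The members were therefore selected on the measured log2 fold changes of INPP5D against control, which are described here without a test, and the other members were added as genes of the same pathway. Of the 8 genes, 7 are among the 14788 genes of the deposited expression table, and all 7 passed the filter on low values that left 13765 genes for testing. PIK3R2 was not analysed here.

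Messenger RNA was sequenced in bulk from CAL51, a cell line established from a human triple-negative breast cancer. TREX1, the main DNA exonuclease of the cytosol, was knocked out by lentiviral CRISPR with a different guide RNA in each of 2 groups, KO-1 and KO-2, and each was compared with the Control group, with 2 libraries a group. All 6 libraries came from CAL51 cells with no drug treatment named, and the labels give neither the control vector nor whether a knockout group was a clone or a mixed population. The labels do not say that replicates were grown separately, so a p-value here covers just the scatter of 2 libraries a group, which may be technical. Reads summed to 16802681 and 18440036 in KO-1, 13222933 and 20154836 in KO-2, and 22941234 and 25785055 in Control. KO-2 replicate 1 had the fewest reads, and 61 genes were at 0 there; in the other libraries 5 to 16 genes were. TREX1 itself was not analysed here, so the knockout labels were not checked against it. Of the markers fixed for the cell type, 7 of 7 epithelial genes were measured, with a summed level of 2174 to 2218 CPM (reads scaled to library size) in the 4 knockout libraries and 1768 to 1806 CPM in the Control libraries. The 4 mesenchymal markers, all measured, summed to 1644 to 1936 CPM in knockout libraries and 1493 and 1676 CPM in Control.

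Class I PI3Ks are dimers of a catalytic subunit, such as p110-alpha (PIK3CA) or p110-beta (PIK3CB), and a regulatory p85 subunit, such as p85-alpha (PIK3R1) or p85-beta (PIK3R2), which stabilises the catalytic subunit and docks it on activated receptors. They phosphorylate PI(4,5)P2 to PIP3, which recruits the kinase AKT and other proteins to the plasma membrane. SHIP1 (INPP5D) and SHIP2 (INPPL1) remove its 5-phosphate to give PI(3,4)P2, which INPP4A and INPP4B then hydrolyse at the 4-position. SHIP1 is known mainly from blood cells, SHIP2 is expressed widely, and loss of INPP4B is a known feature of triple-negative breast cancers.

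INPP5D lies on chromosome 2 from 233059967 to 233207903 on the plus strand, and INPPL1 on chromosome 11 from 72223701 to 72239105 on the plus strand (GRCh38, GENCODE). Their RefSeq promoters, from 250 bases before to 50 after the RefSeq start in build GRCh38.p14, are shown because these paralogues had such different levels and fold changes. Capitals mark CpG dinucleotides.
INPP5D, chr2:233060092-233060391, plus strand: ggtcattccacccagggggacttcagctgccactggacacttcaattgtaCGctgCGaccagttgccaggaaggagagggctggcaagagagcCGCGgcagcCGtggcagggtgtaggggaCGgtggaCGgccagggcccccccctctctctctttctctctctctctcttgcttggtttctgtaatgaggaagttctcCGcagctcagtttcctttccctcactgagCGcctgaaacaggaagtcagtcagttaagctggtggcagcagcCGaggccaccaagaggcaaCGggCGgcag
INPPL1, chr11:72223313-72223612, plus strand: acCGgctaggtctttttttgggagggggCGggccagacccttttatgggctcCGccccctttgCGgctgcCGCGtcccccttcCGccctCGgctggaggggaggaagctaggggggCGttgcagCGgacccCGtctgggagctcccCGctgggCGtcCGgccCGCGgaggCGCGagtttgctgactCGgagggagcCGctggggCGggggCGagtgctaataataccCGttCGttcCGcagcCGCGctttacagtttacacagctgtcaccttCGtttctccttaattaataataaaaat
The INPP5D window held 12 CpGs at an observed-to-expected ratio of 0.440, and the INPPL1 window held 28 at a ratio of 0.933. The median over the promoters of 11442 genes in the expression table was 26 CpGs at a ratio of 0.836. The INPP5D start used by RefSeq lies inside the GENCODE gene, whose longest model begins upstream of it. Motifs were searched on both strands. Each window held GAGGAA, the core letters of PU.1 sites, 1 time, and 27.6% of 27305 RefSeq promoters hold it. The GC box letters GGGCGG occurred 1 time in the INPP5D window and 4 times in the INPPL1 window, and at least 1 time in 44.6% of all promoters. Neither window held the AP-1 letters TGANTCA, found in 7.76% of all promoters, or a p53 half-site, found in 6.54%.

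INPP5D, the 5-phosphatase SHIP1, was the member that changed most, and it did so from a low level. It had 4.39 and 4.52 log2 CPM in KO-1, 3.65 and 3.81 in KO-2, and 2.34 and 2.51 in Control. The reads behind these values were 347 and 420 in KO-1, 162 and 280 in KO-2, and 116 and 146 in Control. The 3 groups did not overlap, with KO-1 highest and Control lowest. Of all genes tested, 22.3% had all 4 knockout libraries above both Control libraries, and the share with all 3 groups apart was not computed. Relative to Control, the level was 4.09-fold higher in KO-1 (log2 fold change 2.03 ± 0.14, SE) and 2.46-fold higher in KO-2 (1.30 ± 0.14). Because these are the values by which the set was chosen, no test is given for them. The threshold of 2-fold is a log2 fold change of 1. INPP5D was the single member inside it, nearest to it in KO-2, and the closest values outside it were 0.33 for PIK3CA in KO-2 and 0.28 for INPP4B in KO-1. Over all genes tested, 90, or 0.654%, were higher over 2-fold with both guides, and INPP5D ranked 25 from the highest in KO-1 and 43 in KO-2. In bulk RNA, more cells with the transcript and more transcript per cell cannot be told apart.

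The rule did not use the difference in INPP5D between the guides. The same KO-1 and KO-2 values chose the set, however, so the test of this difference is not independent of the choice. The level in KO-2 was below that in KO-1 by a log2 difference of -0.73 ± 0.14 (SE, 95% interval -1.05 to -0.41), with a Benjamini-Hochberg adjusted p of 0.0387 over all genes in limma. Only 1.14% of all genes were called in that comparison, and the authors' deposited table gives INPP5D the same log2 difference with a false discovery rate of 0.0200. The call was lost without either KO-1 library (adjusted p = 0.342 without replicate 1 and 0.417 without replicate 2) and without either Control library (0.0985 and 0.0993). It was also lost without the mean-variance trend (0.212) and with only the KO-2 and KO-1 libraries in the fit (0.0676).

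**Figure D1:**
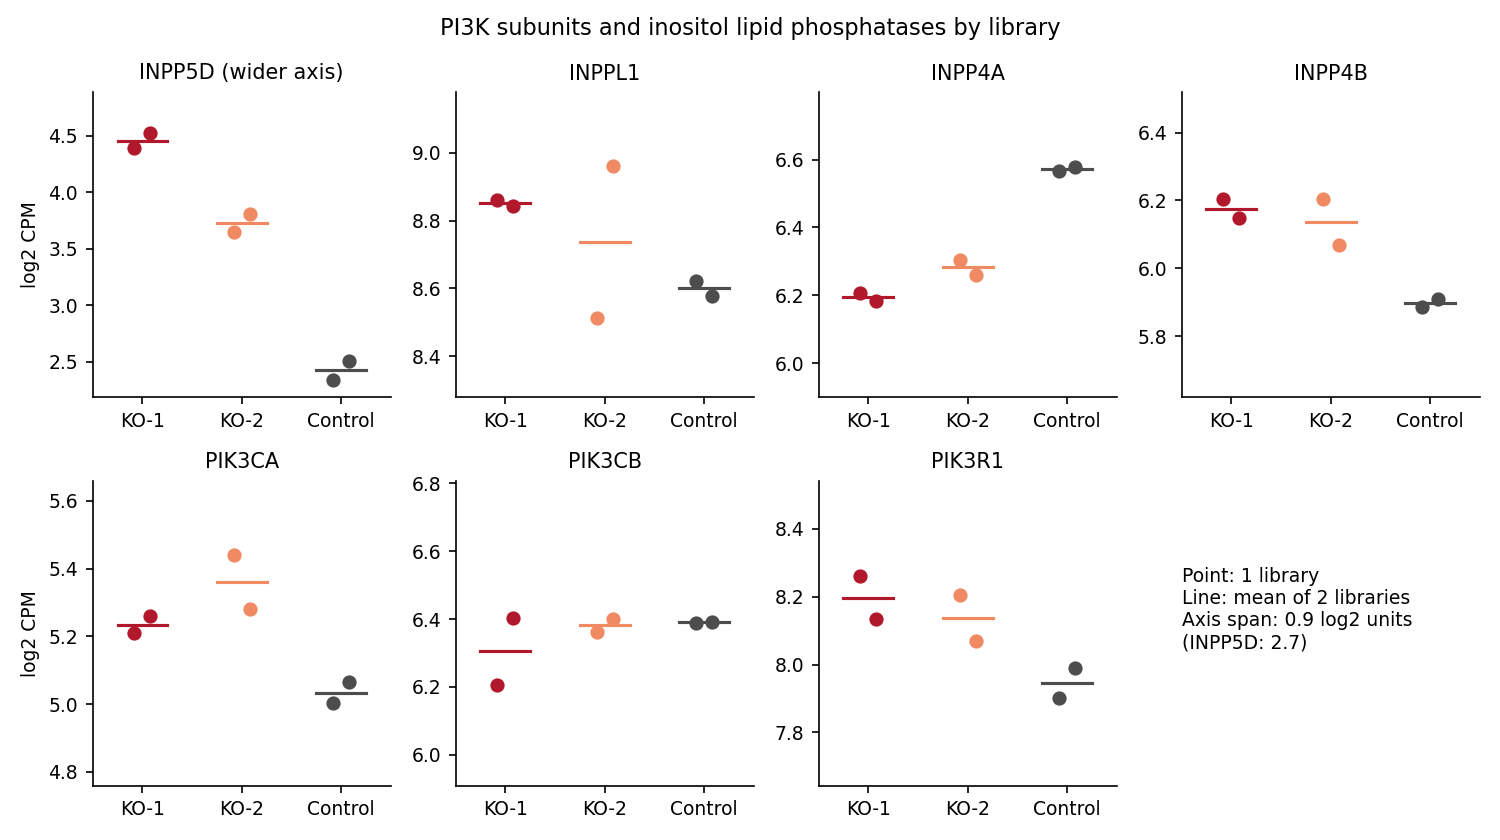
Level of each of the 7 measured members in log2 CPM (y axis) in the 2 libraries each of KO-1, KO-2 and Control (points, x axis), with the group mean as a line and a wider axis for INPP5D. It lies at 4.39 and 4.52 in KO-1, 3.65 and 3.81 in KO-2, and 2.34 and 2.51 in Control. These groups do not overlap, and the INPP5D fold changes against Control are those that chose the set.

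INPPL1, the widely expressed SHIP2, did not pass the test in any comparison of the main fit. It had 8.86 and 8.84 log2 CPM in KO-1, 8.51 and 8.96 in KO-2, and 8.62 and 8.58 in Control. The low value was that of KO-2 replicate 1, the only knockout library below both Control libraries. The mean of both guides differed from Control by a log2 fold change of 0.19 (95% interval -0.01 to 0.40, limma adjusted p = 0.138). Without KO-2 replicate 1 it was 0.31, so the size depended on 1 library. In KO-2 alone the log2 fold change was 0.14, and it ran from -0.09 to 0.36 when 1 library was left out. Its sign thus also depended on 1 library. In KO-1 it was 0.25 (limma adjusted p = 0.0996), and this comparison was called in 4 of 15 alternatives. Among these were the fit with only the KO-1 and Control libraries (1.3e-05) and that with library medians set equal (0.0488). Per kilobase of exon, INPPL1 averaged 70.8 RPKM (CPM divided by exon length in kilobases) in KO-1, 66.2 in KO-2 and 59.5 in Control, against 2.52, 1.52 and 0.608 RPKM for INPP5D in the same groups. INPP5D thus made up 3.27% and 3.61% of the SHIP transcripts in KO-1, 2.49% and 2.05% in KO-2, and 0.939% and 1.09% in Control. The share was higher in every knockout library than in either Control library, and INPPL1 remained the main SHIP transcript in all 6. The INPP5D values that chose the set enter this share, so its rise over Control largely follows from that choice and was not tested.

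INPP4A, a 4-phosphatase for PI(3,4)P2, was the one member that fell with both guides. Its levels were 6.21 and 6.18 log2 CPM in KO-1, 6.31 and 6.26 in KO-2, and 6.57 and 6.58 in Control. All 4 knockout libraries lay below both Control libraries, as they did for 24% of all genes. The log2 fold change was -0.38 ± 0.07 in KO-1 (SE, limma adjusted p = 0.00189) and -0.29 ± 0.07 in KO-2 (adjusted p = 0.0147). For the mean of both guides it was -0.33 ± 0.06 (adjusted p = 0.00176), called under all 14 alternative settings. The KO-2 call was lost without either Control library (adjusted p = 0.139 without replicate 1 and 0.141 without replicate 2) and without the mean-variance trend (0.0807).

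INPP4B, the paralogue of INPP4A that is often lost in triple-negative tumours, moved the other way. It had 6.20 and 6.15 log2 CPM in KO-1, 6.20 and 6.07 in KO-2, and 5.89 and 5.91 in Control, so the transcript was present in Control and every knockout library lay above it. The 4 knockout libraries all lay above both Control libraries for 22.3% of all genes, and for INPP4B, PIK3CA and PIK3R1 among the members other than INPP5D. The log2 fold change of INPP4B was 0.28 ± 0.08 in KO-1 (SE, limma adjusted p = 0.0185) and 0.24 ± 0.08 in KO-2 (adjusted p = 0.0544, not called). The mean of both guides gave 0.26 ± 0.07 (adjusted p = 0.0136), and this call was lost without Control replicate 1 (0.150), Control replicate 2 (0.111) or KO-1 replicate 1 (0.0624), and without the mean-variance trend (0.0616). The KO-1 call was lost in 5 of 15 alternatives, which left out the trend or any 1 of the KO-1 and Control libraries, at adjusted p up to 0.142.

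With one paralogue lower and the other higher, the summed level of the pair stayed between 10.5 and 11.2 RPKM in the knockout libraries and was 11.4 and 11.5 RPKM in Control. INPP4B made up 48.2% and 47.7% of that sum in KO-1, 46.5% and 44.9% in KO-2, and 36.8% and 36.9% in Control. The shares did not overlap between knockout and Control libraries, and in every library INPP4A remained the more abundant of the pair per kilobase. These shares were computed after the levels were known and are a description with no test.

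**Figure D2:**
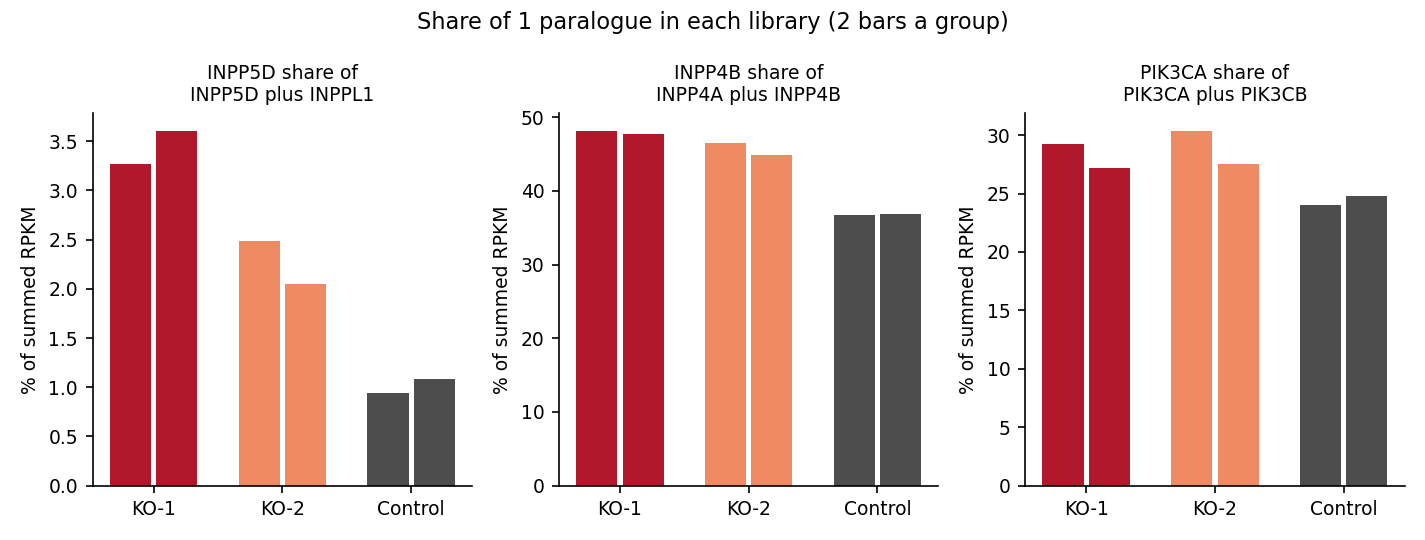
Share of each paralogue pair's summed RPKM, in percent (y axis), held by INPP5D of INPP5D plus INPPL1, INPP4B of INPP4A plus INPP4B, and PIK3CA of PIK3CA plus PIK3CB, with 1 bar for each library, by group on the x axis. In every panel the 4 knockout libraries sit above both Control libraries, for INPP4B at 44.9% to 48.2% against 36.8% and 36.9%. The INPP5D panel uses the values by which the set was chosen.

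Among the catalytic subunits, PIK3CA was higher in knockout cells and PIK3CB did not pass the test. PIK3CA, which encodes p110-alpha, had 5.21 and 5.26 log2 CPM in KO-1, 5.44 and 5.28 in KO-2, and 5.00 and 5.06 in Control. The knockout libraries did not overlap with Control. The log2 fold change was 0.33 ± 0.09 in KO-2 (SE, limma adjusted p = 0.0339) and 0.20 ± 0.09 in KO-1 (adjusted p = 0.127, not called), and the guides did not differ past the threshold (KO-2 against KO-1, 0.13, 95% interval -0.08 to 0.33). For the mean of both guides it was 0.26 ± 0.08 (adjusted p = 0.0290), lost without Control replicate 1 (0.249) or 2 (0.144), without KO-1 replicate 1 (0.0731) or 2 (0.0941), and without the mean-variance trend (0.0685). The KO-2 call was lost in 8 of 15 alternatives, every library but KO-2 replicate 2 among them when left out. The exons of KCNMB3 on the opposite strand overlap 35.8% of the exonic bases of PIK3CA, and no source used here says whether the counting used strand. KCNMB3 had 4 to 31 reads a library, against 565 to 871 for PIK3CA.

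PIK3CB, which encodes p110-beta, had 6.21 and 6.40 log2 CPM in KO-1, 6.36 and 6.40 in KO-2, and 6.39 and 6.39 in Control. Of the knockout libraries, 2 lay above both Control libraries and 2 below. The log2 fold change of the mean of both guides was -0.05 (95% interval -0.20 to 0.10, limma adjusted p = 0.641). PIK3CA made up 29.3% and 27.2% of the summed RPKM of the pair in KO-1, 30.4% and 27.5% in KO-2, and 23.99% and 24.8% in Control, so PIK3CB was the more abundant catalytic transcript per kilobase in all 6 libraries.

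PIK3R1, the regulatory subunit p85-alpha, had 8.26 and 8.13 log2 CPM in KO-1, 8.21 and 8.07 in KO-2, and 7.90 and 7.99 in Control. Every knockout library was above both Control libraries. The log2 fold change was 0.25 ± 0.07 in KO-1 (SE, limma adjusted p = 0.0156), 0.19 ± 0.07 in KO-2 (adjusted p = 0.0694, not called) and 0.22 ± 0.06 for the mean of both guides (adjusted p = 0.0143). The last call was lost without Control replicate 1 (0.197), Control replicate 2 (0.0604) or KO-1 replicate 1 (0.0755), and without the mean-variance trend (0.111). The KO-1 call was lost in 4 of 15 alternatives, which left out the same libraries or the trend, at adjusted p of 0.0501 to 0.180. Per kilobase, PIK3R1 averaged 27.3 ± 1.69 RPKM in KO-1, 26.2 ± 1.73 in KO-2 and 22.9 ± 0.992 in Control (SD, n = 2), more than PIK3CA and PIK3CB together in each group.

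Taking the 6 members other than INPP5D, 3 were called higher and 1 lower for the mean of both guides, beside 14.6% of all genes called higher and 14.9% lower (29.6% in all). In KO-1, 2 were called higher and 1 lower, beside 29.7% of all genes called. In KO-2, 1 was higher and 1 lower, beside 16.9% of all genes. None of the 6 was called for KO-2 against KO-1 by limma, and none reached an unadjusted p below 0.05. Their median log2 fold change with both guides was 0.21, against -0.01 over all genes. These genes were picked with earlier results known, so the counts describe them and test nothing.

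**Figure D3:**
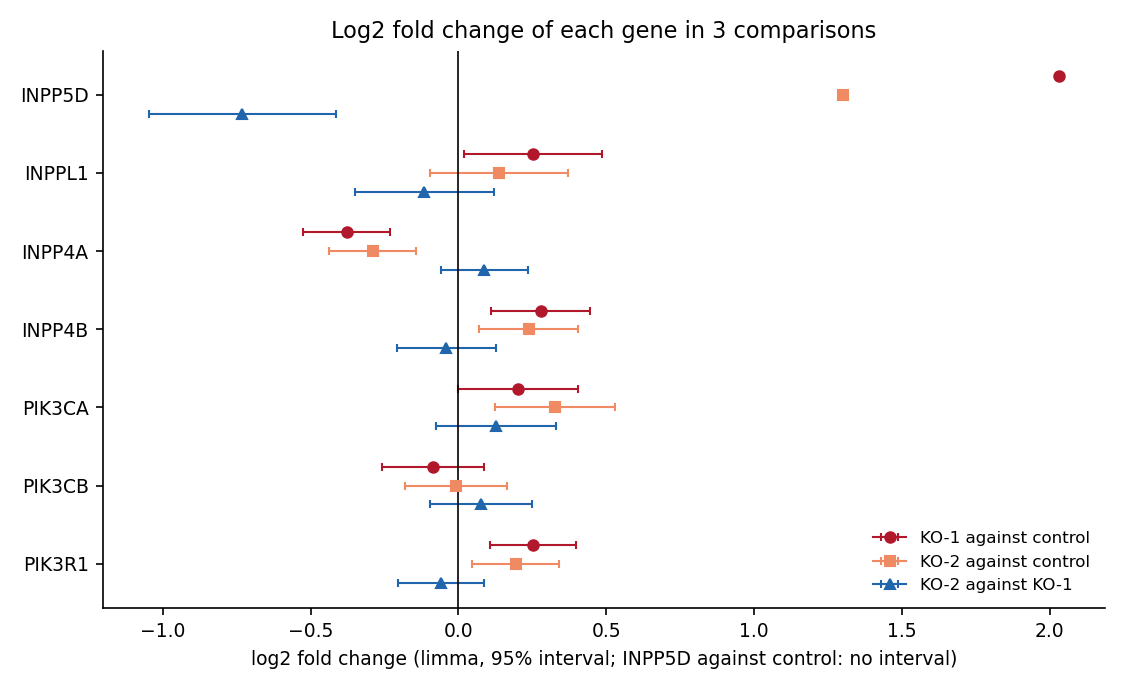
Log2 fold change (x axis) of each measured member (y axis) in KO-1 and KO-2, each against Control, and between the guides as KO-2 over KO-1 (points by colour and shape), with 95% intervals from limma as bars, except for INPP5D against Control, and no change as the vertical line. INPP5D stands at 2.03 in KO-1 and 1.30 in KO-2, and the other members lie between -0.38 and 0.33.

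Ordered by level per kilobase in Control, the members ran INPPL1, PIK3R1, PIK3CB, INPP4A, INPP4B, PIK3CA and INPP5D. Their mean levels in Control were 59.5 ± 1.31, 22.9 ± 0.992, 10.7 ± 0.003, 7.21 ± 0.042, 4.21 ± 0.047, 3.44 ± 0.103 and 0.608 ± 0.050 RPKM in that order (SD, n = 2). No neighbours in this order overlapped in Control. The same order held for the means in KO-1 and KO-2. These lengths are the union of GENCODE exons, so the order also depends on which isoforms the cells use. For PIK3CA, it also depends on how reads in the exonic bases shared with KCNMB3 were counted.

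Of the other class I subunits, PIK3R3 (p55-gamma) had a log2 fold change with both guides of 0.07 (limma adjusted p = 0.411) and PIK3CD, the p110-delta subunit of blood cells, 0.14 (adjusted p = 0.613). PIK3CD was low, at 1.08 RPKM in KO-1, 0.645 in KO-2 and 0.746 in Control, so INPP5D passed it in both knockout groups but not in Control.

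Because SHIP1 is a gene of blood cells, 21 leukocyte markers were looked for. Of these, 3 were measured, and their summed level was 20.6 and 22.3 CPM in KO-1, 19.8 and 18.1 in KO-2, and 21.5 and 18.9 in Control, so the groups overlapped. PTPRC, the leukocyte phosphatase CD45, made up most of the sum and had a log2 fold change of 0.15 (limma adjusted p = 0.312). CORO1A, an actin regulator of leukocytes, had a log2 fold change of -1.40 (adjusted p = 0.00727), the opposite direction to INPP5D. ITGAM, an integrin of myeloid cells, changed by 0.45 (adjusted p = 0.404). The other 18 markers, SPI1 and CD53 among them, were not analysed here.

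Beside INPP5D on chromosome 2, the 10 nearest tested protein-coding genes were taken, 5 on each side. For the mean of both guides, 1 was called higher, 2 lower and 7 neither, beside 14.6% of all genes higher and 14.9% lower. Their median log2 fold change with both guides was -0.00. ATG16L1, an autophagy gene that begins 2.15 kb after INPP5D ends, had a log2 fold change of 0.05 (limma adjusted p = 0.566), and NGEF, a guanine nucleotide exchange factor 46.7 kb before it, -0.54 (0.185). KCNJ13, a potassium channel, had 13 and 17 reads in KO-1, 12 and 9 in KO-2, and 4 and 2 in Control. Its log2 fold change was 1.94 (adjusted p = 0.0144), lost without either Control library (0.0617 and 0.135) or KO-1 replicate 2 (0.0608). With so few reads the size depended on the prior, and it was 0.65 with a pseudocount of 1 CPM and 2.47 with voom weights. EFHD1, a mitochondrial calcium-binding protein, fell by 0.93 (adjusted p = 3.3e-05), and HJURP, a centromere histone chaperone, by 0.22 (0.0128). The HJURP call was lost without either Control library (0.123 and 0.156) or KO-1 replicate 2 (0.0585), and without the mean-variance trend (0.0554).

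**Figure D4:**
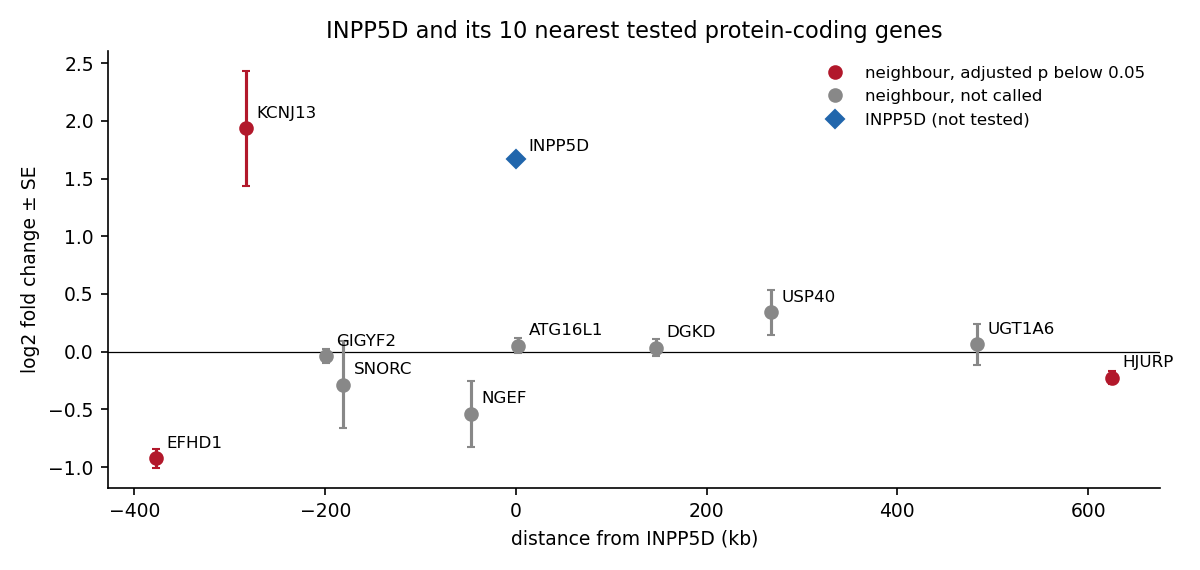
Log2 fold change with both guides against Control (y axis, bars are SE, none for INPP5D) of INPP5D and its 5 nearest tested protein-coding genes on each side, by distance from INPP5D in kb (x axis, negative before it). INPP5D stands at 1.67 with ATG16L1 at 0.05 and NGEF at -0.54 beside it, and KCNJ13, at 1.94, rests on 2 to 17 reads a library.

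The 10 genes whose centred profile over the 6 libraries lay nearest that of INPP5D were CXCL8, CCL20, DRAM1, GDF15, OLR1, FOSL1, APOBEC3C, UCA1, TSPAN11 and ANKRD1. Their Euclidean distances ran from 0.222 to 0.481 log2 units, against a median of 2.10 over all genes. CXCL8, the neutrophil chemokine interleukin 8, was nearest, with 5.13 and 5.30 log2 CPM in KO-1, 4.59 and 4.55 in KO-2, and 2.998 and 3.20 in Control. These genes had the same order of groups as INPP5D, with KO-1 highest and Control lowest, as the choice by profile requires.

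Genes of the wider pathway were taken from 12 lists, and calls below are for the mean of both guides, in which 14.6% of all genes were higher and 14.9% lower. Among class II and class III PI3Ks and their cofactors, 2 of 6 were higher and 2 lower. Fewer were lower when a Control or a KO-1 library was left out. PIK3C3, the kinase VPS34 of autophagy and endosomes, had 5.88 and 5.85 log2 CPM in KO-1, 5.66 and 5.63 in KO-2, and 5.27 and 5.17 in Control, a log2 fold change of 0.53 (limma adjusted p = 0.000404). Its regulatory partner PIK3R4 rose by 0.38 (0.00210). The 2 lower genes of this list were BECN1, at -0.35 (0.00794), and PIK3C2B, at -0.40 (0.0136). Of 12 other 5-phosphatases and SAC phosphatases, none was higher and 2 were lower by limma, with 0 lower without either Control library or KO-1 replicate 1. Of 16 other 4-phosphatases and myotubularins, 2 were higher and 2 lower, and 1 was higher and 0 lower without either Control library. MTMR6, a myotubularin phosphatase, was higher by a log2 fold change of 0.56 (0.000492). Of 13 phosphoinositide kinases and cofactors, 3 were higher and 4 lower, among them PIP4K2B, a kinase of PI5P, at -0.52 (8.5e-05), and VAC14, the scaffold of PIKFYVE, at -0.52 (0.000696). Those counts became 1 higher and 3 lower without Control replicate 1, and 0 and 2 without replicate 2, and without the mean-variance trend none was higher.

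Upstream of the members, 4 of 13 adaptors were higher and none lower, beside 14.6% and 14.9% of all genes. The count of higher adaptors was 1 without either Control library or KO-1 replicate 1, 2 without KO-1 replicate 2 and 8 without KO-2 replicate 2. CD2AP, a scaffold that binds p85, rose by 0.39 (limma adjusted p = 0.00105). Of 13 receptors and RAS genes, 6 were higher and 4 lower, but 3 and 0 when either Control library was left out, 5 and 1 without KO-1 replicate 1, and 4 and 0 without KO-1 replicate 2. MET, the receptor for hepatocyte growth factor, rose by 0.44 (adjusted p = 0.000235) and IGF1R by 0.41 (0.00124). ERBB3, a receptor that docks p85, counted among the lower genes through KO-1 alone and was singled out after its values were seen. Its log2 fold change was -0.76 in KO-1 (adjusted p = 0.00192) and -0.00 in KO-2 (0.997). Downstream, of 15 genes for AKT, the mTOR complexes and related kinases, 2 were higher and 5 lower, with fewer of each when either Control library was left out. MTOR had 6.70 and 6.53 log2 CPM in KO-1, 6.91 and 6.89 in KO-2, and 7.46 and 7.53 in Control, a log2 fold change of -0.74 (2.2e-05). PDPK1, the kinase that activates AKT at the membrane, fell by 0.57 (0.000404). AKT1 itself fell by 0.28 (0.00225), a call lost without Control replicate 1. SGK1, from the same list, rose by 0.33 (0.00508), a call lost without either Control library.

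Of 17 genes listed as brakes on PI3K, AKT or mTORC1, 9 were higher with both guides and none lower, beside 14.6% and 14.9% of all genes. The median log2 fold change of the list was 0.29. The list was drawn up with earlier results of these data known, and whether its genes act as brakes in these cells was not tested. PIK3IP1, a transmembrane protein that binds and inhibits p110, had 3.05 and 2.998 log2 CPM in KO-1, 2.60 and 2.24 in KO-2, and 1.40 and 1.26 in Control, a log2 fold change of 1.39 (limma adjusted p = 0.000387). PHLDA3, which competes with AKT for PIP3, rose by 1.08 (0.000185), and the stress proteins SESN1 and SESN2, which lower mTORC1 activity, by 1.07 (7.5e-06) and 1.06 (1.5e-05). The last 3 are also known p53 targets. The count fell to 6 without either Control library. Of 16 AKT substrates and TSC-RHEB genes, 3 were higher and 2 lower, but 1 and 0 without any 1 of the KO-1 or Control libraries. MDM2, the ligase that degrades p53 and another p53 target, rose by 1.07 (1.2e-06).

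Of 20 PIP3 and PI(3,4)P2 binding proteins, 4 were higher and 4 lower, near the 14.6% and 14.9% of all genes. They numbered 1 and 1 without Control replicate 1, and 2 and 2 without replicate 2. VAV3, a guanine nucleotide exchange factor, rose by 0.91 (limma adjusted p = 0.000786) and ARAP3, a GTPase-activating protein that PIP3 recruits, fell by 0.44 (0.00179). DAPP1, an adaptor known from B cells that binds both lipids, had 32 to 85 reads a library and a log2 fold change of 1.24 (0.00286), lost without Control replicate 1 (0.0622). Of 17 genes known as FOXO targets, the transcription factors that AKT keeps out of the nucleus, 12 were higher and 1 lower, beside 14.6% and 14.9% of all genes, with a median log2 fold change of 0.30. GADD45A rose by 1.13 (1.8e-05), FBXO32, a muscle ubiquitin ligase subunit, by 0.80 (0.000312) and TXNIP, a thioredoxin-binding protein, by 0.72 (0.000341). The list includes PIK3CA, shares genes with the lists of receptors, adaptors and brakes, and holds GADD45A, which is also a p53 target. Its count of higher genes was 6 without Control replicate 1, 5 without replicate 2, 8 without KO-1 replicate 1 and 7 without the mean-variance trend.

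**Figure D5:**
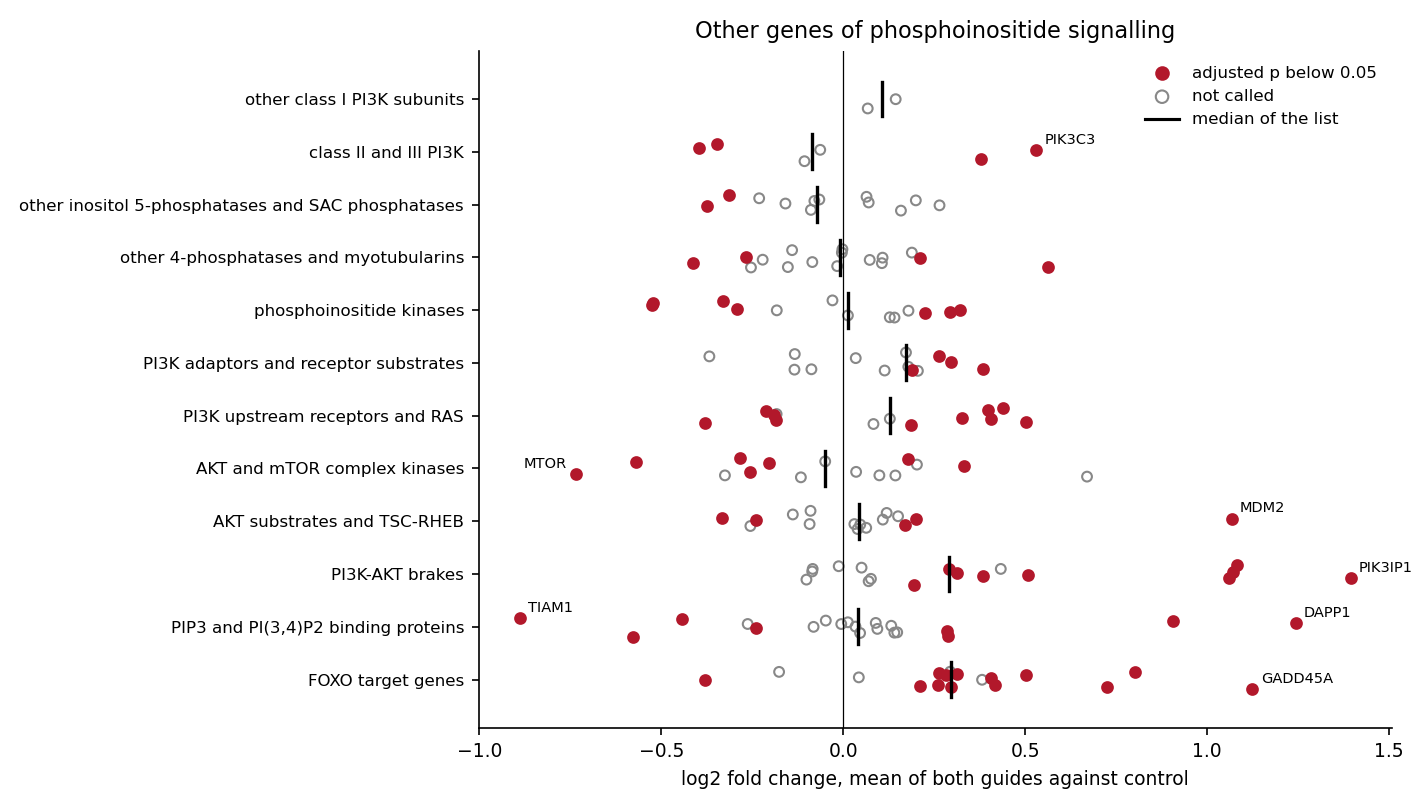
Log2 fold change with both guides against Control (x axis) of every tested gene in 12 lists of phosphoinositide signalling (y axis), with filled points at a limma adjusted p below 0.05, open points not called and a bar at each list's median. The medians of the brakes and the FOXO targets are 0.29 and 0.30, and those of the other 10 lists lie between -0.08 and 0.17.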

How the data were processed

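Expression was deposited by the authors as log2 CPM per gene. The submitters' processing notes name fastp, STAR (2.7), featureCounts from Subread (2.0) and edgeR, with build hg38. Annotation, strand setting and gene filter are not given in the sources used. The authors' deposited table of comparisons also gives log2 fold changes, p-values and false discovery rates. After subtracting the prior of 0.102 CPM, the values gave whole reads for every gene at a tolerance of 0.01 reads, and 1 read was worth 0.0383 to 0.0767 CPM.

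Genes at 0 log2 CPM or above in at least 2 of 6 libraries were tested with limma (3.58.1, R 4.3.3) on the values as deposited, so fold changes include the prior, which understates low genes. Group means of all 6 libraries were fitted with a mean-variance trend, and p-values were adjusted by Benjamini-Hochberg over 13765 genes, called below 0.05. The fit was tested on simulated data. RPKM values were computed from the recovered reads with GENCODE 29 exon lengths (GRCh38, the assembly of hg38). Promoters came from RefSeq, and all 7 measured members matched.

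The members and lists were chosen with earlier results of these data known. Genes to name were drawn from the members, up to 4 called genes a list by smallest p, the 10 neighbours of INPP5D and the 10 nearest profiles; of these the text names a part. TIAM1, ERBB3, NRAS and PPP2R1A were singled out after their values were seen. Alternatives changed the filter, pseudocount, scaling, trend, libraries and replicate block, or used voom weights on recovered reads.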

Additional observations from a re-analysis of the deposited data

Results flagged for a closer look

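These genes differed between the guides, by the KO-2 against KO-1 contrast in limma (adjusted p over all genes). INPP5D was lower in KO-2 by a log2 difference of -0.73 (adjusted p = 0.0387), a test on values that also chose the set. MDM2 differed by -0.58 (0.00355), GADD45A by -0.63 (0.0202), SESN1 by -0.47 (0.0261) and TXNIP by -0.58 (0.0313). PPP2R1A, a scaffold of phosphatase PP2A, differed by -0.44 (0.00659) and NRAS by -0.36 (0.0178). PIP4K2B was higher in KO-2 by 0.31 (0.0391) and ERBB3 by 0.76 (0.0261). None of the 9 was called without either KO-1 library or without the mean-variance trend. Without either Control library MDM2, GADD45A and PPP2R1A were called and the other 6 were not. The direction relative to Control was the same with both guides except for PPP2R1A, at -0.31 in KO-2 and 0.14 in KO-1 (adjusted p = 0.0841, not called). The changes of ERBB3 in KO-2 (-0.00) and NRAS in KO-1 (-0.01) did not pass the test.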

How the results depend on the processing

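Of 413 recomputed member values, 355 stayed the same, 39 lost the call and 16 gained one. Staying the same meant keeping the side of the threshold or, for INPP5D against Control, moving by less than the replicate SD. Another 3 moved (INPP5D with a 1 CPM pseudocount, 1.87 in KO-1, 1.17 in KO-2 and 1.52 for both guides). With a call in either fit, 0 reversed direction. Uncalled values that changed sign count among the 355, as INPPL1 in KO-2 did, from 0.14 to -0.09 with 1 library left out. Genes called numbered 4068 for both guides, 4089 for KO-1, 2329 for KO-2 and 157 for KO-2 against KO-1. Without the mean-variance trend they numbered 2201, 2345, 162 and 1 in that order, and with only the libraries compared 6259 for KO-1, 1371 for KO-2 and 48 between guides. Leaving out 1 library gave 1286 to 6075, 1694 to 6255, 362 to 4565 and 0 to 3170. The counts of 0 in limma came without either KO-1 library, where 1286 and 1344 genes had an unadjusted p below 0.05. An arm left with 1 library was assumed to vary like the others. With library medians set equal, 61.7% of the calls for both guides were higher, against 49.4%, and the median of all genes moved to 0.04.

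Same-numbered libraries did not deviate together (r = -0.04 for KO-1 and KO-2, -0.05 for KO-1 and Control, 0.04 for KO-2 and Control). These values cannot show whether same-numbered libraries were grown or prepared together. With a replicate block, 3782, 3829, 2054 and 105 genes were called, and PIK3CA in KO-2 had an adjusted p of 0.0505. Of 41 named list genes, 20 were called under all 14 alternatives; 17 lost the call without Control replicate 1 and 18 without replicate 2. Few reads limit KCNJ13 (2 to 17 a library) and KCNMB3 (4 to 31).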
